A study of Mus musculus with 16 samples.

Results

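The nuclear-encoded subunits of the respiratory chain were examined in livers from male mice kept on a high-fat diet for 12 weeks. Genes were taken by name and biotype: any protein-coding gene whose symbol begins as Ndufa, Ndufb, Ndufc, Ndufs or Ndufv with a number, Sdha to Sdhd, Uqcr, Cox4 to Cox8 followed by a letter from a to c, or Atp5. This gave 82 of the 25803 genes in the deposited tables, with 36 in complex I, 4 in complex II, 8 in complex III, 17 in complex IV and 17 in complex V (ATP synthase). The naming rule itself refers to no measured value. Of the 82 members, 80 had enough counts to be tested, and the 2 left out, Cox6a2 and Cox8b, are muscle and heart isoforms at or near 0 counts.

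The study compared control mice with mice lacking Cpt1a in the liver (LKO), each killed either after a 16 h fast or after a 16 h fast and 6 h of refeeding. The 4 groups were therefore fasted control (libraries S40 to S43), fasted LKO (S44 to S47), refed control (S48 to S51) and refed LKO (S52 to S55), with 4 libraries each, and the high-fat diet was common to all of them. Cpt1a encodes the outer-membrane enzyme that admits long-chain fatty acids to mitochondrial oxidation, and the study as titled concerns plasma cholesterol after its loss. The design text calls the control mice WT. The strain, the age, how the knockout was made and whether each library is a separate animal are not given in the labels used here, so the p-values below measure the spread between these libraries.

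The respiratory chain passes electrons from NADH (complex I) and succinate (complex II) through ubiquinone, complex III and cytochrome c to oxygen at complex IV, and complex V uses the resulting proton gradient to make ATP. Most subunits are encoded in the nucleus and imported, and they join a small set of subunits made inside the mitochondrion. In liver the chain takes up the NADH and FADH2 that fatty acid oxidation produces, a flow that is greatest in fasting.

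The labels held up where they could be checked. Cpt1a was lower in LKO livers by 2.28 on the log2 scale in the fasted state (20.7% of control) and by 3.08 in the refed state (11.9%), with no overlap between the 4 and 4 libraries (exact two-sided permutation p = 0.0286 each, the smallest this design can give). Libraries held 14721601 to 24618230 counts, and the members took 1.22% to 1.46% of them. The 8 hepatocyte markers on a fixed list summed to 66012 to 98929 CPM (counts per M (mega) counts of the library, scaled by TMM factors), while the 8 striated muscle markers summed to at most 1.9 CPM in any library. Bulk RNA cannot tell apart fewer cells of a type and less RNA per cell.

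Promoter sequence is a property the members were not chosen on, so it is shown first. RefSeq promoter windows of mouse build GRCm38.p6, from 250 bases before to 50 bases after a start site, were matched by symbol to 68 of the 82 members, which gave 73 windows. The windows were searched on both strands for a nuclear respiratory factor 1 (NRF1) core (GCGCA, any base, then GCGC), an ETS core, CCGGAAG, which GABP also recognises, and a YY1 core, AAGATGGC. The ETS and YY1 cores can share the letters AAG. Cox6a1 (chr5:115348909-115349208, minus strand) is shown because it is the most abundant member per length and its window holds 2 NRF1 cores and 1 ETS core. Sdhb (chr4:140961021-140961320, plus strand) and Ndufb8 (chr19:44555393-44555692, minus strand) are shown because both transcripts fell in fasted LKO livers and each window holds 1 core, ETS and YY1 respectively. Cox7a1 (chr7:30183921-30184220, plus strand), the heart and muscle isoform, is shown as a window that holds none of the motifs. That holds for 34 of the 73 member windows, including the window of Cox7a2, the liver form of the same subunit. Capitals mark the matches.
Cox6a1: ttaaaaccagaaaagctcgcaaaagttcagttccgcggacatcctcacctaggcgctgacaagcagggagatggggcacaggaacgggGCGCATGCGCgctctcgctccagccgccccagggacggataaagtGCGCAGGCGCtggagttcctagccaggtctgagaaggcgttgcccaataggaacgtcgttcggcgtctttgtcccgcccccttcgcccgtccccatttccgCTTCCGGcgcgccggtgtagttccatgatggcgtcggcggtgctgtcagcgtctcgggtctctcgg
Sdhb: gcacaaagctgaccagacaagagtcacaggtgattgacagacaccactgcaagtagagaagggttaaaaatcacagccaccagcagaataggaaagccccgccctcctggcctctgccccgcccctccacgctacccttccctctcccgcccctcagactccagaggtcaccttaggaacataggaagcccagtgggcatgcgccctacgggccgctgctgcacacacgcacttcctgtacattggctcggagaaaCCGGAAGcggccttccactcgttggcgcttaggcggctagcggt
Ndufb8: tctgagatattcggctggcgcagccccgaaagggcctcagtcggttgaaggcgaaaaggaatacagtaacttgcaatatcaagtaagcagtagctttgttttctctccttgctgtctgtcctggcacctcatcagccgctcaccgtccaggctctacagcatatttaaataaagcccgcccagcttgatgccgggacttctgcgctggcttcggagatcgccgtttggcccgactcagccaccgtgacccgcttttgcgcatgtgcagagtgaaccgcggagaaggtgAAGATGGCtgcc
Cox7a1: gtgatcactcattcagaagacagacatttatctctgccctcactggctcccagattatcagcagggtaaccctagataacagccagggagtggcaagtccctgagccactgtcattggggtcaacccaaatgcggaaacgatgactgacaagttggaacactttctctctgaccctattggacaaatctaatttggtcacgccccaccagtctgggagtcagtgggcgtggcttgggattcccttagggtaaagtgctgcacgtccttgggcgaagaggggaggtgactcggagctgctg

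In the Cox6a1 window the NRF1 matches begin 162 and 117 bases before the start site and the ETS match begins 16 bases before it. The ETS match of Sdhb begins at +7 and the YY1 match of Ndufb8 at +39. Across the list, 18 of 73 member windows (24.7%) held the NRF1 core, against 4.60% of all 32851 windows in the table. The ETS core was in 17 member windows (23.3%, against 8.86%) and the YY1 core in 10 (13.7%, against 2.75%). At least 1 of these 3 motifs was in 39 of 73 member windows (53.4%, against 14.7%). The NRF1 core was spread over all 5 complexes, in 7 of 32 complex I genes, 2 of 3 complex II genes, 1 of 5 complex III genes, 1 of 13 complex IV genes and 6 of 15 complex V genes with a window. The YY1 core was found in 7 complex I genes and 3 complex V genes and in no window of complexes II to IV. A further motif, the ERRα element TCAAGGTCA, was in 2 member windows (2.74%, against 0.423%). Of the members called in any contrast, 17 had a window, and 3 of those held the NRF1 core, 6 the ETS core and 2 the YY1 core. A match is a stretch of letters and says nothing of binding in these livers.

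Levels were compared between genes only per length, as mean CPM per kb of gene model over the 16 libraries. Complex IV held the member with the highest level per length, Cox6a1, the liver isoform of subunit 6a, at 677 CPM per kb, followed by Cox8a at 369. Complex V came next with Atp5a1 (α subunit) at 336 and Atp5b (β subunit) at 325 CPM per kb. The pair did not differ beyond their spread between libraries of a group (coefficient of variation 5.19% and 5.22%). In complex III the small subunits Uqcrq, Uqcr11 and the Rieske iron-sulphur protein Uqcrfs1 stood at 214, 195 and 193 CPM per kb, and the core proteins Uqcrc1 and Uqcrc2 at 75.4 and 68.1. In complex II, Sdhd, a membrane anchor, led at 178 CPM per kb, and Sdha (flavoprotein), Sdhb (iron-sulphur protein) and Sdhc (the other anchor) stood at 110, 98.7 and 70.0. Complex I ran from Ndufa2 at 171 and Ndufa1 at 161 to Ndufs1 at 10.1 and Ndufb2 at 1.98 CPM per kb. The length is that of the deposited gene model. For the 77 members with a mean of at least 5 CPM, the coefficient of variation within a group had a median of 7.37%, with Ndufa3 lowest at 4.22% and Ndufa12 highest at 50.1%.

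**Figure D1:**
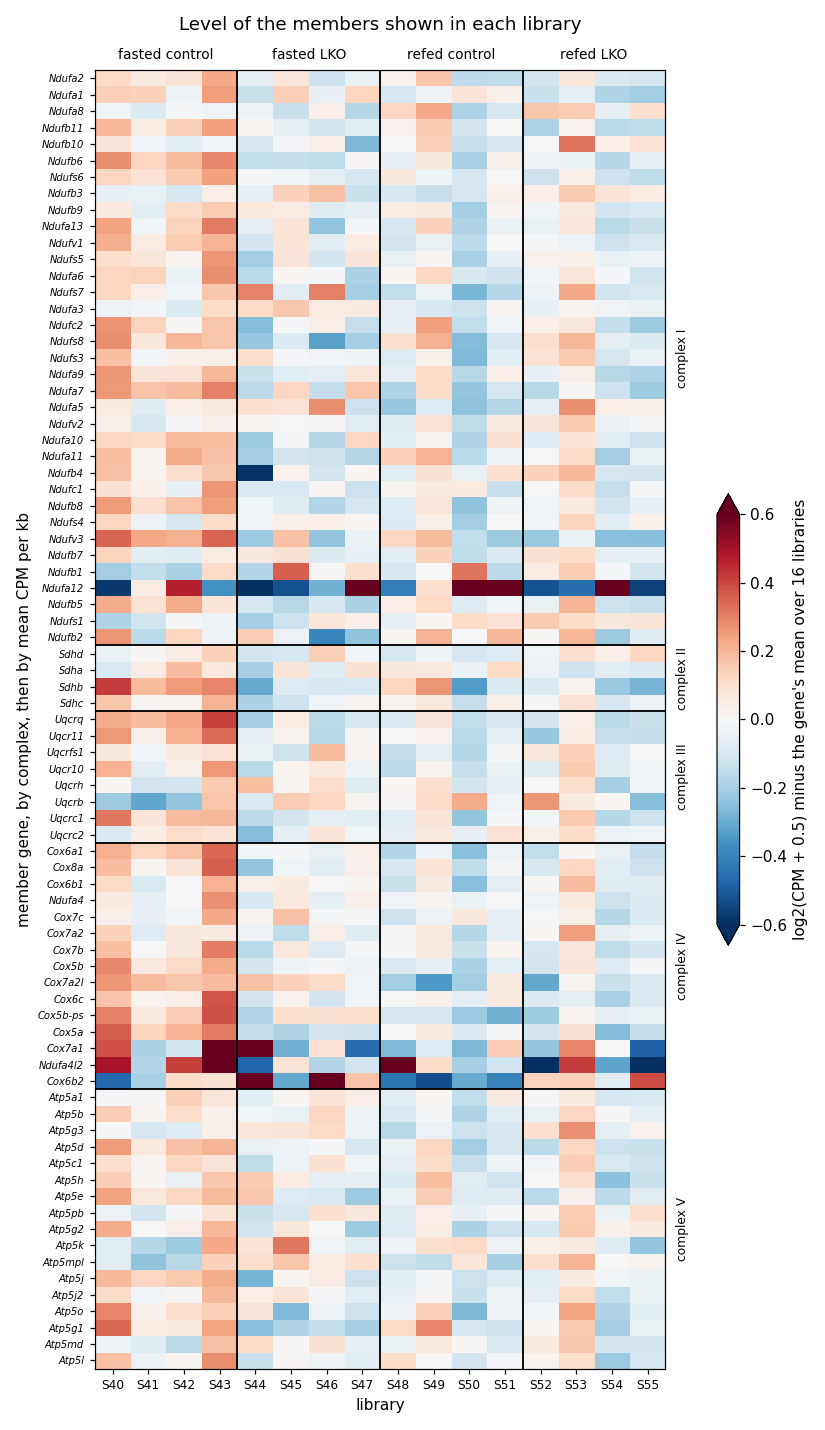
Level of 79 of the 80 tested members (rows, by complex and then by mean CPM per kb) in each of the 16 libraries (columns), as log2(CPM + 0.5) minus the gene's own mean over the libraries. The fasted control columns are mostly red, S40 and S43 most so, with medians over the 80 members of 0.15 and 0.19, and the S50 column is mostly blue, with a median of -0.15. Ndufa12, Cox7a1, Ndufa4l2 and Cox6b2 stand out by their scatter.

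In fasted LKO livers, 12 of the 80 tested subunits had lower transcript levels than in fasted control livers, by modest amounts, and 0 had higher ones (quasi-likelihood test of edgeR, Benjamini-Hochberg adjusted over 14488 genes, called at an adjusted p under 0.05). The 12 are 15.0% of members, where 6.48% of all genes were called lower and 5.75% higher. Those that fell were 6 of 36 in complex I, 1 of 4 in complex II, 2 of 8 in complex III, 1 of 15 in complex IV and 2 of 17 in complex V. Estimates lay below 0 for 64 of 80 members, and their median log2 fold change was -0.16, beside 0.02 over all genes. The 2 groups of 4 libraries did not overlap, with LKO lower, for 21 members, including all 12 that were called, where 8.57% of all genes had no overlap in that direction. Summed over the members, the level went from 14101 ± 602 CPM in fasted control to 12914 ± 319 CPM in fasted LKO (SD, n = 4).

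Complex I oxidises NADH, and its members that fell belong to both of its arms. Ndufs8, an iron-sulphur subunit on the path of electrons to ubiquinone (chromosome 19, 3958863 to 3962774, in the deposited coordinates, which follow build mm39 per the submitters' processing notes), stood at 99.0, 85.4, 93.4 and 91.3 CPM in fasted control. In fasted LKO it stood at 69.4, 76.9, 65.0 and 70.6 CPM, so every LKO library was below every control library. The log2 fold change was -0.39 ± 0.10 (SE), with an adjusted p of 0.0184 by edgeR. Ndufb6, an accessory subunit of the membrane arm (chromosome 4, 40270591 to 40279421), was at 75.0, 67.6, 70.5 and 75.7 CPM in control and at 55.8, 55.8, 55.6 and 62.0 CPM in LKO. It fell by 0.33 ± 0.07 on the log2 scale (adjusted p = 0.00726), without overlap, and remained called under each of the 17 alternative settings. Ndufv3, an accessory subunit beside the NADH-oxidising flavoprotein, was at 88.3, 81.5, 80.4 and 88.6 CPM in control and at 59.4, 78.5, 58.7 and 67.2 CPM in LKO. Its groups came close, the highest LKO library lying just under the lowest control library, and the log2 fold change was -0.36 ± 0.11 (adjusted p = 0.0345). The other 3 that fell are membrane-arm accessory subunits: Ndufa11 by 0.31, Ndufb5 by 0.30 and Ndufb8 by 0.29 on the log2 scale. Other nuclear core subunits, namely Ndufv1, Ndufv2, Ndufs1, Ndufs3 and Ndufs7, did not pass the test.

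Complex II joins the citric acid cycle to the chain. Sdhb, its iron-sulphur subunit (chromosome 4, 140688514 to 140706504), had the largest fall of any member measured at 5 CPM or more. It was at 293, 249, 261 and 267 CPM in fasted control and at 177, 207, 204 and 205 CPM in fasted LKO. The groups did not overlap, and S44 lay below the other LKO libraries. The log2 fold change was -0.43 ± 0.11 (adjusted p = 0.0209 by edgeR), a fall by 25.9%. The other complex II members, Sdha, Sdhc and Sdhd, had estimates below 0 and were not called.

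Complex III carries electrons from ubiquinol to cytochrome c. Uqcrq, a small subunit at the ubiquinone-binding face (chromosome 11, 53318749 to 53321658), was at 455, 443, 457 and 518 CPM in fasted control. In fasted LKO it was at 338, 402, 348 and 363 CPM, with no overlap. It fell by 0.37 ± 0.08 on the log2 scale (adjusted p = 0.00997 by edgeR) and remained called under each of the 17 alternatives. Uqcrc1, a core protein, was at 386, 327, 354 and 354 CPM in control and at 278, 287, 298 and 297 CPM in LKO, and its log2 fold change was -0.29 ± 0.09 (adjusted p = 0.0410). Uqcrb, another ubiquinone-binding subunit, went the other way without passing the test (0.19 ± 0.12, adjusted p = 0.312).

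Complex IV, cytochrome c oxidase, had 1 member that fell. Cox5a, a matrix-facing structural subunit (chromosome 9, 57428557 to 57439709), had the smallest adjusted p of all members, 0.00367 by edgeR. It was at 112, 95.1, 100 and 108 CPM in fasted control and at 78.5, 76.5, 80.2 and 79.6 CPM in fasted LKO. The LKO libraries lay close together and below every control library. The log2 fold change was -0.40 ± 0.08, a fall by 24.2%, and it remained called under each of the 17 alternatives. Of the other 14 tested members of this complex, 13 had estimates below 0. The median over complex IV was -0.20, the lowest of the 5 complexes, and that of complex V was -0.07, the highest.

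Complex V makes ATP. Atp5g1, 1 of 3 genes for the identical c subunit of its rotor ring, was at 185, 151, 152 and 172 CPM in fasted control and at 123, 129, 132 and 127 CPM in fasted LKO. It fell by 0.37 ± 0.10 on the log2 scale without overlap (adjusted p = 0.0292 by edgeR). Atp5j, the coupling factor 6 of the stalk, was at 193, 184, 188 and 197 CPM in control and at 139, 170, 175 and 154 CPM in LKO, and fell by 0.26 ± 0.08 (adjusted p = 0.0362). The α and β subunits, Atp5a1 and Atp5b, did not pass the test. Atp5b was at 1520, 1388, 1475 and 1401 CPM in fasted control and at 1348, 1330, 1496 and 1343 CPM in fasted LKO, so the groups overlapped.

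**Figure D2:**
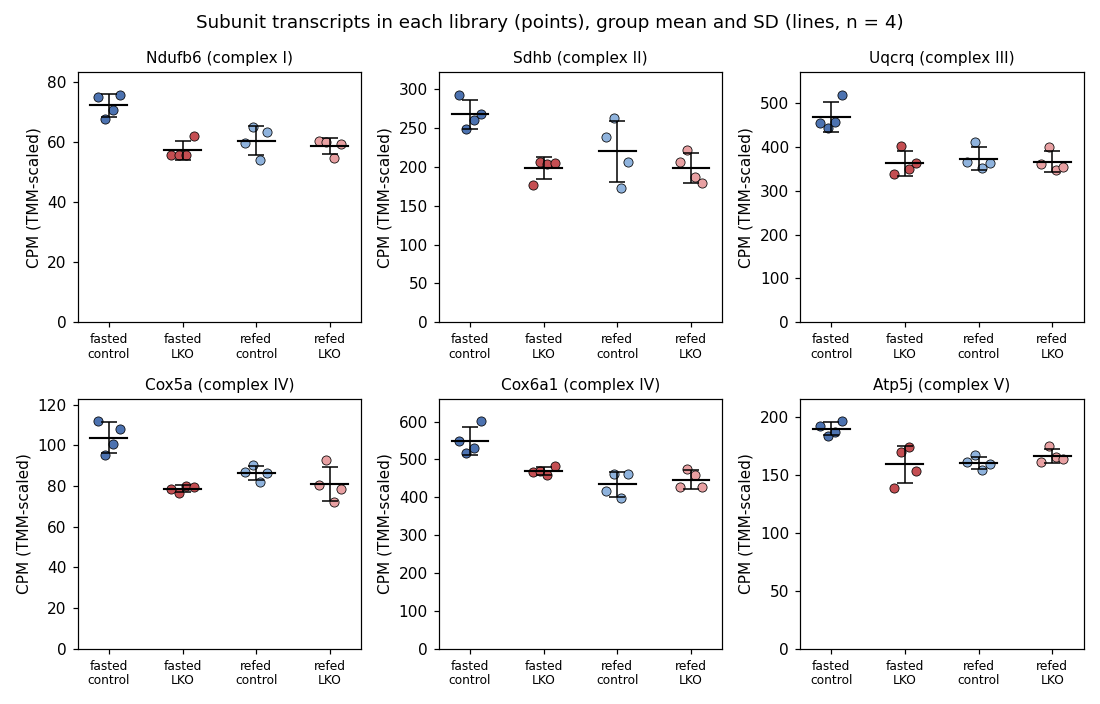
CPM of 6 subunits in the 4 libraries of each group (points), with the group mean (long bar) and SD (whiskers). The 6 were picked among members with a called fall relative to the fasted controls. That these controls are the highest of the 4 groups in each panel was thus largely fixed by the choice. The other 3 groups lie close together. For Cox5a the group means are 104, 78.7, 86.4 and 81.0 CPM from left to right.

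Measured properties of the libraries moved with this comparison. The 8 hepatocyte markers summed to 82274 to 89959 CPM in fasted control and to 66012 to 76763 CPM in fasted LKO, with no overlap; Ttr and Serpina1c were called lower, 7 of 8 estimates were below 0 and their median was -0.55. Among markers of other cell types, Dcn (0.36), 1 of 5 stellate or fibroblast markers tested, was called higher, and Cfd (-3.45), 1 of 2 adipocyte markers tested, and Alas2 (-1.04), 1 of 3 red blood cell markers, were called lower. The other adipocyte marker tested had an estimate above 0 and was not called. Estimates were above 0 for 4 of the 5 stellate or fibroblast markers and for 0 of the 3 red blood cell markers. The sums of these lists overlapped between the groups, at 132 to 208 and 157 to 208 CPM for stellate cells, at 29.8 to 72.7 and 21.2 to 54.5 CPM for adipocytes, and at 356 to 1176 and 274 to 462 CPM for red blood cells, in control and LKO in that order. No marker of the macrophage, endothelial, lymphocyte, cholangiocyte or striated muscle lists was called here. Estimates were above 0 for 4 of 4 lymphocyte markers tested (median 0.51) and 4 of 4 cholangiocyte markers (median 0.99). The cholangiocyte markers summed to 4.1 to 8.6 CPM in fasted control and to 6.1 to 45.9 CPM in fasted LKO. The acinar pancreas markers, of which 0 were tested, summed to at most 0.19 CPM in fasted control and 9.4 CPM in fasted LKO. The part of these markers in the members' fall was not tested. Members are short genes, with a median model of 1578 bases against 4039 over all genes tested, and libraries differed in how levels ran with gene length. The median deviation of the shortest 20% of all genes minus that of the longest 20% was between 0.06 and 0.22 in the fasted control libraries and between -0.07 and 0.01 in the fasted LKO libraries. With each library's length trend removed, 10 of the 12 members remained lower, the exceptions being Ndufa11 (adjusted p = 0.0612) and Atp5j (adjusted p = 0.0583), and the members' median became -0.09. In that fit Atp5mpl, a small proteolipid of ATP synthase, was called higher by 0.28 (adjusted p = 0.0421), beside 0.18 (adjusted p = 0.187) without the correction. The count also depended on single libraries: 3 members remained called without S40, 5 without S44, 6 without S43 or S46, and 7 without S42 or S47. Cox5a, Ndufb6 and Uqcrq were called in each of those fits. Over all genes, the counts called lower were 688 of 14732 without S40, 561 of 14685 without S44 and 710 of 14767 without S43. They were 654 of 14736 without S46, 700 of 14774 without S42 and 934 of 14734 without S47. Without S40 the share called lower was thus smaller among members than among all genes.

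**Figure D3:**
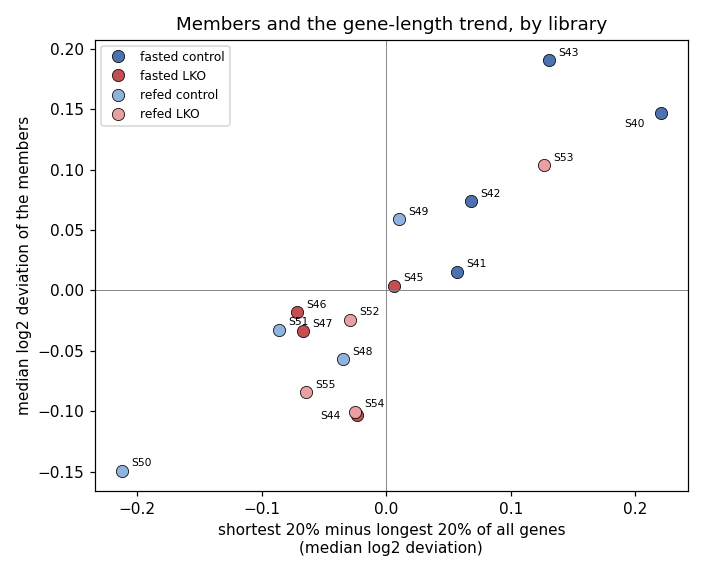
For each library, the median log2 deviation of the members from their mean over the 16 libraries (vertical axis) against the median deviation of the shortest 20% of all tested genes minus that of the longest 20% (horizontal axis). S40 and S43 of fasted control and S53 of refed LKO lie at the upper right, and S50 of refed control at the lower left (-0.21 and -0.15).

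In the refed state the members did not differ detectably between genotypes. Of 80 members, 0 passed the test by edgeR, where 2.28% of all genes were called higher and 1.35% lower, and 0 passed by DESeq2 or limma-voom. In 0 members did all LKO libraries lie below all control libraries, which held for 5.03% of all genes, and in 4 members (Sdhd, Ndufa5, Ndufb3 and Cox6b2) all lay above them, which held for 6.70% of all genes. At an unadjusted p under 0.05 there were 4, where 18.4% of all genes were under it, and all 4 had higher estimates: Ndufa5 (0.26), Cox6b2 (1.14), Atp5g3 (0.20) and Ndufb3 (0.16). The median log2 fold change was 0.00, beside -0.01 over all genes, with 42 estimates above 0 and 38 below. Among the 77 members with a mean of 5 CPM or more, 76 had a 95% interval of the log2 fold change within 0.5 of 0. The exception was Ndufa12. This bound is wider than the falls called in fasted LKO, of which the largest was 0.43 for Sdhb. In the fasted contrast 69 of the 77 intervals also lay within 0.5, so the bound by itself does not exclude falls of that size. Cox5a was at 87.0, 90.1, 82.0 and 86.5 CPM in refed control and at 80.5, 92.6, 72.4 and 78.5 CPM in refed LKO, and the groups overlapped. Sdhb was at 239, 262, 173 and 206 CPM in refed control and at 206, 222, 187 and 180 CPM in refed LKO, also overlapping. The summed level averaged 12933 ± 752 CPM in the refed LKO group, against 12747 ± 681 among the refed controls (SD, n = 4 each). The hepatocyte markers had a median of -0.35 in this contrast, with 0 called. Of the other marker lists, 1 of 5 endothelial markers was called higher, the only call. Estimates were above 0 for 4 of 4 lymphocyte markers (median 1.16) and 4 of 4 cholangiocyte markers (median 0.25). They were above 0 for 0 of 5 macrophage markers (median -0.49) and 1 of 5 stellate or fibroblast markers (median -0.29).

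Between fasted and refed control livers, 12 of the 80 tested subunits fell and 0 rose by edgeR's test, again 15.0%, where 7.65% of all genes were called lower and 7.79% higher. The median was -0.14, beside 0.01 over all genes, and 70 estimates were below 0. By complex, 4 fell in complex I, 0 in complex II, 2 in complex III, 5 in complex IV and 1 in complex V. The groups did not overlap, with refed lower, for 20 members, where this held for 10.1% of all genes. This contrast and that of fasted LKO with fasted control share the 4 fasted control libraries, so their falls are not independent and are given side by side below only as values.

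Fewer of the refeeding calls held under the alternatives. With the length trend removed, 3 of the 12 members remained called, Cox5b-ps (-0.39), Cox6a1 (-0.27) and Ndufb8 (-0.23), and the median became -0.08. In that fit 991 of the 14488 genes tested were called lower, a larger share than among the members. The 2 libraries with the steepest length trends, S40 of fasted control (0.22) and S50 of refed control (-0.21), stand on opposite sides of this contrast. Without both of them 0 members were called and the median was -0.09, and in the fasted genotype contrast, which S50 does not enter, 6 were called. Over all genes tested, 356 of 14594 were then called lower on refeeding and 669 of 14594 in the fasted genotype contrast. Without S43 or S50 alone, 3 remained called on refeeding, and without S40 or S48 alone, 4 and 5. Genes called lower over all those tested were 737 of 14767 without S43 and 700 of 14733 without S50. Both are larger shares than among the members. They were 625 of 14732 without S40 and 705 of 14773 without S48. The hepatocyte markers differed less here, at 78559 to 98929 CPM in refed control, with 0 called and a median of -0.12. Of the other marker lists, 2 of 5 stellate or fibroblast markers were called higher, Lrat (0.95) and Reln (0.39). Their summed level was 158 to 198 CPM in refed control, within the range in fasted control, and their part in the result was not tested.

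Complex IV had the most members that fell on refeeding, 5 of 15 tested against 4 of 36 in complex I, with Cox5b-ps counted among the 5. Cox6a1 (chromosome 5, 115483701 to 115487040) was at 548, 516, 531 and 601 CPM in fasted control and at 418, 461, 397 and 462 CPM in refed control, with no overlap. It fell by 0.34 ± 0.08 on the log2 scale (adjusted p = 0.00889 by edgeR). Cox7a2l, which ties complex IV to complex III in supercomplexes, was at 132, 125, 123 and 125 CPM in fasted control and at 94.7, 86.0, 95.1 and 114 CPM in refed control. Its log2 fold change was -0.37 ± 0.09 (adjusted p = 0.0116), without overlap. Cox5b-ps, a single-exon copy of Cox5b that the tables annotate as protein-coding (chromosome 13, 21685199 to 21685588), was at 22.4, 18.9, 20.1 and 23.7 CPM against 16.9, 16.8, 15.5 and 14.7 CPM. It fell by 0.41 ± 0.10 (adjusted p = 0.00898) and its parent gene Cox5b fell by 0.27 (adjusted p = 0.0207). How reads shared by the 2 copies were assigned is not given in the sources used here, so the value of Cox5b-ps is uncertain. Cox5a fell by 0.26 here and by 0.40 in fasted LKO against fasted control.

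In complex I the members that fell on refeeding were Ndufa7, Ndufb8, Ndufb6 and Ndufv1. Ndufa7, an accessory subunit of the hydrophilic arm, was at 118, 111, 112 and 122 CPM in fasted control and at 86.8, 106, 83.9 and 91.9 CPM in refed control. It fell by 0.33 ± 0.09 on the log2 scale (adjusted p = 0.0266 by edgeR). Ndufb8, a membrane-arm subunit (chromosome 19, 44537011 to 44543879), was at 95.9, 86.0, 90.5 and 95.6 CPM against 76.0, 84.4, 67.9 and 78.4 CPM, and fell by 0.26 ± 0.07 (adjusted p = 0.0255). The highest refed library of Ndufb8 lay just below the lowest fasted one. Ndufb6 fell by 0.26 and by 0.33 in the contrasts of refeeding and of genotype. Ndufv1, which holds the flavin that NADH reduces, fell by 0.23 on refeeding (adjusted p = 0.0362) and had an estimate of -0.17 in the fasted genotype contrast, which was not called.

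In complexes III and V, Uqcrq was at 366, 412, 351 and 364 CPM in refed control, below each of its fasted control values, and fell by 0.33 ± 0.08 (adjusted p = 0.0163 by edgeR). Uqcr11, a small subunit of complex III, was at 149, 127, 144 and 157 CPM in fasted control and at 124, 126, 111 and 119 CPM in refed control, groups that nearly met, and fell by 0.27 ± 0.08 (adjusted p = 0.0422). Atp5j was at 162, 167, 154 and 160 CPM in refed control and fell by 0.24 ± 0.08 (adjusted p = 0.0393). Sdhb of complex II overlapped between the groups and was not called (-0.28 ± 0.11, adjusted p = 0.103).

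In LKO livers no member passed the test on refeeding. By edgeR 0 of 80 were called, where 9.28% of all genes were called higher and 8.78% lower, and 0 passed by DESeq2 or limma-voom. At an unadjusted p under 0.05 there were 4, where 31.0% of all genes were under it: Ndufs8 (0.26) and Ndufb10 (0.20) with higher estimates, Cox7a2l (-0.23) and Ndufa1 (-0.17) with lower ones. The median was 0.00, beside -0.02 over all genes, and for 76 of 77 members with a mean of 5 CPM or more the 95% interval lay within 0.5 of 0. On refeeding of control livers 69 of the 77 lay within the same bound, so by itself it does not exclude falls of the size called there. Ndufs8 went from 69.4, 76.9, 65.0 and 70.6 CPM in fasted LKO to 87.5, 93.6, 78.5 and 77.0 CPM in refed LKO, just without overlap (adjusted p = 0.0890). It was the 1 member whose refed libraries all lay above the fasted ones, which held for 10.6% of all genes. With the length trend removed Ndufs8 was the 1 member called, higher by 0.25 (adjusted p = 0.0397). Ndufa3 was the 1 member whose refed libraries all lay below the fasted ones, which held for 9.95% of all genes.

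**Figure D4:**
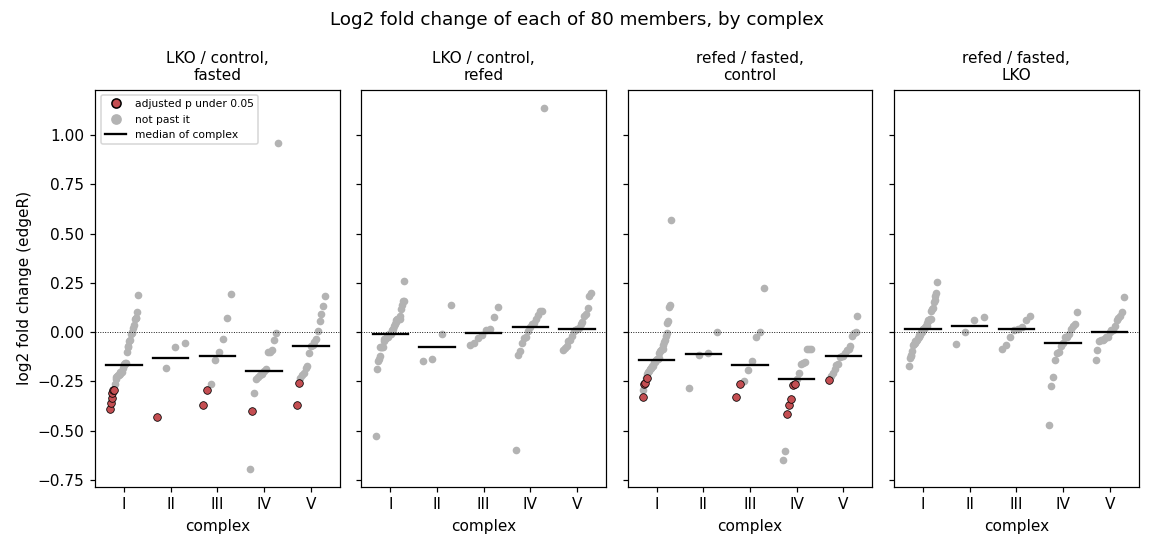
Log2 fold change of each of the 80 tested members by complex (points), in the 4 contrasts of groups. Filled red points passed the adjusted p threshold of 0.05, and bars are the median of each complex. Red points occur in the first and the third panels, which share the fasted control libraries, 12 in each and all below 0. The points furthest from 0 are the low-count isoforms and Ndufa12.

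The interaction, the LKO effect in refed livers minus that in fasted livers, was tested for each gene, and 0 of 80 members passed, where 0.311% of all genes were called higher and 0.228% lower. Estimates were above 0 for 69 members, meaning a genotype effect less negative in the refed state, and their median was 0.16, beside -0.01 over all genes and 0.08 with the length trend removed. At an unadjusted p under 0.05 there were 12, all above 0, where 16.5% of all genes were under it and 8.30% were under it with an estimate above 0. They were led by Ndufs8 (0.44 ± 0.14, adjusted p = 0.140), Ndufb8 (0.33 ± 0.11, adjusted p = 0.142) and Uqcrq (0.34 ± 0.12, adjusted p = 0.162). DESeq2 and limma-voom also called 0. A fall past the threshold in fasted livers and not in refed livers is thus not shown to differ between the states.

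The sums over each complex show how the groups lie. In the order fasted control, fasted LKO, refed control, refed LKO, complex I summed to 3592 ± 145, 3249 ± 81.1, 3268 ± 204 and 3290 ± 185 CPM (SD, n = 4). Complex IV summed to 2301 ± 179, 2049 ± 50.2, 1987 ± 90.8 and 2001 ± 120 CPM in that order. Complex V, the largest sum, was at 5260 ± 185, 5005 ± 170, 4834 ± 244 and 5011 ± 320 CPM. Fasted control was the highest of the 4 groups in each, and in complex V its libraries (4990 to 5390 CPM) overlapped those of fasted LKO (4893 to 5254 CPM). No test was made on these sums.

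Isoforms known from other tissues were at the floor of detection. Cox6a2, the heart and muscle form of Cox6a1, had 0 to 7 counts per library, and Cox8b, the muscle form of Cox8a, had 0 to 5. Cox7a1, the heart and muscle form of Cox7a2, averaged 0.92 CPM and did not pass in any contrast (-0.31 ± 0.40 in the fasted genotype contrast, adjusted p = 0.678). Cox6b2, the testis form of Cox6b1, averaged 0.66 CPM, at 0.30, 0.47, 0.70 and 0.68 CPM in fasted control and 1.45, 0.40, 1.51 and 0.75 CPM in fasted LKO. In the refed state it was at 0.32, 0.27, 0.40 and 0.34 CPM in control and at 0.72, 0.72, 0.56 and 0.95 CPM in LKO, without overlap, and its log2 fold change was 1.14 ± 0.42 (adjusted p = 0.149 by edgeR). Ndufa4l2, the hypoxia-induced relative of Ndufa4, averaged 1.68 CPM, with a log2 fold change of -0.69 ± 0.36 in the fasted genotype contrast (adjusted p = 0.228). The liver forms of the same subunits, Cox6a1, Cox8a, Cox7a2 and Cox6b1, averaged 475, 229, 130 and 181 CPM.

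Ndufa12, an accessory subunit of complex I, had the widest spread within groups of the 77 members with a mean of at least 5 CPM. It was at 14.4 to 18.4 CPM in 9 libraries and at 41.2 to 46.2 CPM in 4 libraries, S47 of fasted LKO, S50 and S51 of refed control and S54 of refed LKO. Its processed pseudogene Ndufa12-ps, which is not a member, varied in the opposite sense, from 12.2 to 35.9 CPM. The sum of both ran only from 40.2 to 59.3 CPM, a 1.48-fold range, against 3.22-fold for Ndufa12 and 2.94-fold for the pseudogene. Ndufa12 took 30.2% to 77.9% of the reads assigned to the pair in a library. Totals over the 16 libraries were 7083 counts for the gene and 7185 for the pseudogene. Ndufa12 was not called in any contrast, and its level is uncertain where reads of the 2 copies could be exchanged. The name pattern also matches 12 pseudogene entries, with 10770 counts in all, equal to 0.284% of the members' own counts, most of them in Ndufa12-ps.

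**Figure D5:**
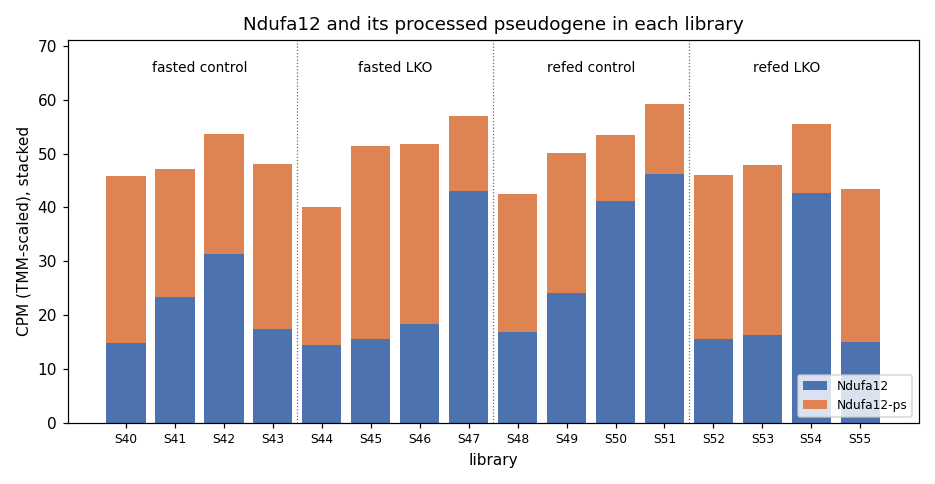
CPM of Ndufa12 (blue) and its processed pseudogene Ndufa12-ps (orange), stacked, in each of the 16 libraries. The height of the stack stays between 40.2 and 59.3 CPM while the blue share moves between 30.2% and 77.9%, and high blue shares occur in 3 of the 4 groups.

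Other genes tied to the chain, subunits for the most part, which the naming rule leaves out, were read from a list of 10, with 7 tested. In the fasted genotype contrast 3 fell, of which Cyc1 is a subunit of a complex: Atpif1, the inhibitor protein of ATP synthase (-0.77 ± 0.16, adjusted p = 0.00567 by edgeR), Dmac2, which acts in the assembly of the complex I membrane arm (-0.48), and Cyc1, the cytochrome c1 of complex III (-0.33). Atpif1 was at 7.6, 6.7, 7.0 and 8.0 CPM in fasted control and at 4.2, 3.5, 3.7 and 5.8 CPM in fasted LKO, without overlap. Cyc1 was at 362, 317, 356 and 353 CPM in fasted control and at 272, 263, 300 and 268 CPM in fasted LKO, also without overlap. On refeeding of control mice Atpif1 (-0.63), Dmac2 (-0.48) and Cox4i1, the largest nuclear subunit of complex IV (-0.26), fell, where 7.65% of all genes were called lower. None of the 7 passed in the other 3 contrasts by edgeR. The 13 subunits encoded in the mitochondrial genome summed to 51691 to 63426 CPM in fasted control and 44551 to 67500 CPM in fasted LKO. Of these, mt-Nd4l (-2.22) and mt-Co3 (-1.48) fell in fasted LKO and mt-Co3 rose on refeeding of LKO mice (1.41). In the fasted genotype contrast 8 of the 13 estimates were above 0, and the median was 0.04. Over all genes 6.48% were called lower in that contrast, and 9.28% higher on refeeding of LKO mice. Poly-A selection and reads in overlapping mitochondrial genes make these counts uncertain.

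Assembly factors are the helper proteins that build the complexes and then leave them. Of 47 tested, 16 rose and 2 fell in refed against fasted LKO livers, where 9.28% of all genes were called higher and 8.78% lower, and their median was 0.23, beside -0.02 over all genes. Ndufaf4, which acts early in complex I assembly, averaged 22.8 ± 1.7 CPM in fasted LKO and 42.6 ± 4.19 CPM in refed LKO (SD, n = 4). It rose by 0.90 ± 0.08 on the log2 scale (adjusted p = 1.19e-05 by edgeR), with no overlap. Ndufaf5, a methyltransferase-family assembly factor, rose by 0.78, and Cox10, which makes the heme O precursor of complex IV, rose by 0.56. Uqcc3 (-0.47) and Ttc19 (-0.28), both of complex III, fell. In control livers 3 rose on refeeding, Ndufaf4 (0.69 ± 0.08, adjusted p = 0.000260), Cox15 (0.40) and Ttc19 (0.25), and 2 fell, Uqcc3 (-0.51) and Cox14 (-0.30), with a median of 0.03. These counts of 3 and 2 among 47 stand beside 7.79% of all genes called higher and 7.65% lower. In the fasted genotype contrast Ttc19 (0.46) and Cox19 (0.42) rose while Sdhaf4 (-0.54), Uqcc2 (-0.35) and Ecsit (-0.25) fell, and in the refed one Cox19 rose (0.47). The 2 and 3 of 47 in the fasted state stand beside 5.75% of all genes called higher and 6.48% lower. The 1 of 47 in the refed state stands beside 2.28% called higher. Sdhaf4, which helps to assemble complex II, was at 17.1, 15.4, 17.7 and 18.7 CPM in fasted control and at 12.0, 11.0, 10.6 and 13.8 CPM in fasted LKO, without overlap. Ttc19 was the 1 assembly factor of 47 with an interaction past the threshold (-0.53 ± 0.11, adjusted p = 0.0426), where 0.228% of all genes were called lower.

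Of 12 regulators of mitochondrial gene expression, 2 passed in the fasted genotype contrast, 1 higher and 1 lower, where 5.75% of all genes were called higher and 6.48% lower. Esrra, the nuclear receptor ERRα, fell by 0.27 ± 0.08 (adjusted p = 0.0377 by edgeR), from 76.8 ± 6.4 CPM in fasted control to 63.6 ± 6.0 CPM in fasted LKO (SD, n = 4), with overlapping groups. Gabpb1, a subunit of GABP, rose by 0.62 ± 0.14 (adjusted p = 0.00918). On refeeding Esrra fell in control livers (-0.25), where 7.65% of all genes were called lower. In LKO livers Ppargc1b, a coactivator, fell on refeeding (-0.96) and Pprc1, a related coactivator, rose (0.70). Over all genes 8.78% were called lower and 9.28% higher in that contrast. None of the 12 passed in the refed genotype contrast. Among 7 tested genes that feed electrons to ubiquinone beside complexes I and II, Etfdh, which takes electrons from fatty acid oxidation, rose in fasted LKO (0.62 ± 0.11, adjusted p = 0.00159), and Prodh (-1.69) and Sqor (-0.64) fell. Etfdh was at 249, 323, 316 and 284 CPM in fasted control and at 439, 435, 500 and 426 CPM in fasted LKO, without overlap. It fell on refeeding of LKO mice (-0.44), where 1 other of the 7 was called higher. The median of the 7 in that contrast was 0.22, beside -0.02 over all genes. Of 13 citric acid cycle genes, Dlst (0.29) rose in fasted LKO and 0 fell. Mdh2 (0.33) and Suclg1 (0.35) rose in refed LKO against refed control, where 2.28% of all genes were called higher. Idh3a rose on refeeding by 0.72 in control and by 0.33 in LKO livers. In control livers it was 1 of 2 called higher among the 13. Over all genes 7.79% were called higher on refeeding in control and 9.28% in LKO livers.

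In the authors' deposited tables, at an adjusted p under 0.05, 15 members were lower in fasted LKO, 11 of them among the 12 called here, and 12 were lower in refed control, all of which were also called here. The authors' deposited tables called 0 members in the refed genotype contrast and 0 on refeeding of LKO mice. No share over all genes of those tables is given here, so these counts do not show an excess among the members.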

How the data were processed

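Total RNA from liver was poly-A selected and made into 16 random-hexamer dUTP libraries, per the labels' protocols. Per the submitters' processing notes, HISAT2 2.0.5 and build mm39 were used. The counting tool, its use of strand and the annotation are not given in the sources used here. The authors deposited 4 tables of raw read counts per gene, 8 libraries in each. Their log2 fold changes and p-values or adjusted p-values, in the same deposited tables, were used only where named, with signs turned so that LKO stands over control and refed over fasted. The deposited gene length, in bases, gave CPM per kb and the length trend. A further 64 per-library columns were not used.

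Count columns carry library names that match no sample title, so groups came from the group headings that tables share, and no replicate number could be attached. Merging the tables by gene identifier gave 25803 genes; 0 counts differed between tables. A gene missing from both tables of a library was set to 0 there (3148 genes, 0 members).

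In R 4.3.3 with edgeR 4.0.16, 14488 genes passed filterByExpr, were scaled by TMM and fitted by glmQLFit with 4 groups as one factor (biological coefficient of variation 0.185). Contrasts were tested by glmQLFTest with Benjamini-Hochberg adjustment over all genes. The SE is the log2 fold change divided by the square root of F. The steps were tested on simulated data. Alternatives were RLE and upper-quartile scaling, 2 other filters, DESeq2 1.42.0, limma-voom 3.58.1, a fit of the 2 groups compared, a lowess trend on gene length (span 0.3) removed by offsets, each library left out, and S40 and S50 left out, the last chosen after seeing the data. Members, lists and tests were chosen with earlier results of these data known. Named genes are Cpt1a, the members, for each contrast and complex the 3 largest called rises and falls in full, isoforms known from other tissues, and up to 3 called rises and falls in each companion list; further members are named to complete a count. In the heatmap, 1 tested member is not shown, and its own values are not reported here; it is in all counts and medians.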

Additional observations from a re-analysis of the deposited data

Results flagged for a closer look

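Among 348 sets of 4 libraries of a group (each member and complex sum), the highest or lowest library stood apart from the other 3 by Dixon's ratio at the 95% level in 18; chance flags about 1 in 20. In refed LKO, S53 was high for Atp5d (375 CPM, others 309 to 315), Ndufa2 (103), Ndufs6 (83.0), Ndufv3 (67.5), Ndufb11 (137) and the complex IV sum (2180, others 1932 to 1952). S53 also has a length trend of 0.13 in favour of short genes. In the same group S54 was high for Ndufa12 (42.7, others 15.1 to 16.3).

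In fasted LKO, S44 was high for Ndufs3 (145 CPM) and low for Sdhb (177, others 204 to 207) and for Cox5b-ps (16.0). S47 was high there for Ndufa12 (43.1) and Ndufb6 (62.0, others 55.6 to 55.8), S45 for Cox7c (196) and S46 for Atp5b (1496). In refed control, S49 was high for Atp5e (158) and Atp5h (159), and S50 was low for Ndufb9 (77.9, others 90.9 to 93.4). In fasted control, S43 was high for Uqcrb (87.4, others 62.7 to 66.9).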

How the results depend on the processing

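The count of members lower in fasted LKO (12) went to 7 with no low-count filter and 6 without S40 and S50, and ran from 3 to 13 with each library left out; DESeq2 gave 17, and 3 members were called in every alternative. The count lower in refed control (12) went to 5 with no low-count filter, 3 with the length trend removed, 7 with only the 2 groups fitted and 0 without S40 and S50, and ran from 3 to 12 with each library left out. Genes called lower over all those tested moved too. In fasted LKO they went from 939 of 14488 to 813 of 25803 with no low-count filter and 1164 of 14488 by DESeq2. In refed control they went from 1109 of 14488 to 846 of 25803 with no low-count filter. With only the 2 groups fitted they were 985 of 13670. On refeeding of LKO mice, 1 member was called with the length trend removed. The members' median interaction went from 0.16 to 0.080 with the length trend removed. The fasted genotype median stayed between -0.19 and -0.09 and that of refeeding in control between -0.19 and -0.08 over 17 alternatives each. The estimate for Cox7a1 in fasted LKO (-0.31) ran from -0.74 to 0.024 with each library left out, the latter without S43. Apart from fewer libraries or other genes tested, the causes were not tested. No paired analysis was possible because the count columns carry no replicate number. Members near 1 CPM have intervals too wide to bound a change.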
